A study of Mus musculus with 2 samples.

Results

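The autophagy machinery was described here as 38 genes that run or regulate macroautophagy, chosen by symbol and found in the gene tables by Ensembl identifier. All 38 were found among the 43346 Ensembl genes of the tables, of which 21461 were nuclear protein-coding genes. Total RNA was sequenced from 2 whole hearts of newborn mice (strain B6NCrl, postnatal day 0), with no treatment or transgene named in the labels. The hearts came from pup 2 (replicate 1) and pup 3 (replicate 2) of pregnancy 1, and the sex of the pups was not recorded. Both samples formed 1 group, so no contrast between conditions exists, and the data give levels, relations between genes and the difference between the 2 hearts. Both samples carried the same donor identifier although the labels name 2 pups, and the SDs below measure the spread between these 2 libraries.

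Macroautophagy encloses cytoplasm in a double membrane, the autophagosome, and delivers it to the lysosome for breakdown. A kinase complex starts the process, a lipid kinase marks the membrane, a pair of ubiquitin-like conjugation systems attach LC3 and GABARAP proteins to it, and cargo receptors tether what is to be degraded. At birth the placental supply of nutrients ends, and autophagy is known to be needed for survival of newborn mice, with the heart among the tissues where autophagosomes become abundant.

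Total expected counts, the estimated reads summed over all features, were 46151722 in replicate 1 and 44707283 in replicate 2. Member counts ranged from 506 to 23081 per heart. All 7 cardiomyocyte markers were detected, with summed levels of 49713 and 45681 TPM (a level per transcript length, scaled to the same total in each library). Fibroblast, endothelial, smooth muscle and macrophage markers were all detected as well, none of 5 liver markers was, and 1 of 5 skeletal muscle markers was (Mylpf at 3.64 and 2.03 TPM). Erythroid markers summed to 6036 and 3916 TPM, with all 5 lower in replicate 2. None of 5 lung markers reached 1 TPM in both hearts, but Sftpc was at 25.5 and 0.34 TPM and Scgb1a1 at 0.97 and 74.3 TPM. Sftpa1 was at 1.13 and 0.31 TPM, Sftpb at 0.42 and 0.25 TPM and Ager at 1.47 and 0.65 TPM. The part of these other cells in any value below was not tested, and in whole tissue fewer cells of a type cannot be told apart from less RNA per cell.

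The stretches that carry the findings on transcripts and promoters are printed first. Map1lc3a lies at chr2:155276297-155278073 on the plus strand (mm10) and encodes LC3A, a protein coupled to the autophagosome membrane. Most of its level was assigned to a transcript annotated as non-coding, Map1lc3a-203, whose first exon spans chr2:155276889-155277013 and begins inside the first intron of the coding transcript, Map1lc3a-201. In the first line below capitals mark the 69 bases of that exon that lie outside the exons of Map1lc3a-201, and in the second line they mark the 40 coding bases of exon 1 of Map1lc3a-201, which Map1lc3a-203 lacks. The lower-case letters of both lines are the shared second exon.
Map1lc3a-203, first exon: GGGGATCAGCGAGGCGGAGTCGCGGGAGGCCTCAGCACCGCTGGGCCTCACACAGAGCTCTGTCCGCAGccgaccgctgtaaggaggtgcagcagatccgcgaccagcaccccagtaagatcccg
Map1lc3a-201, coding part of exons 1 and 2: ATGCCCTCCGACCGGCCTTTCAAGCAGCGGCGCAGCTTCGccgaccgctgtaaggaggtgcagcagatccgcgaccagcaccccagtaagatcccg

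Lamp2, at chrX:38401357-38456454 on the minus strand, encodes a lysosomal membrane protein whose last exon is chosen from alternatives that encode the membrane span and the short cytosolic tail. The last coding exon of each transcript is given with its stop codon in capitals, at chrX:38421712-38421851 for Lamp2-202, chrX:38405432-38405571 for Lamp2-201 and chrX:38402139-38402281 for Lamp2-203.
Lamp2-202: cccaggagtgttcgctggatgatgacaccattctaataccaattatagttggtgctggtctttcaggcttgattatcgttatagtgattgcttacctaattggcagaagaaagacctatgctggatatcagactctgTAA
Lamp2-201: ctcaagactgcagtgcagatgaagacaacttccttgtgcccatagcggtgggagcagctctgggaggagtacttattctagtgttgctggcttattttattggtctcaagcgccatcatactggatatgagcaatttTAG
Lamp2-203: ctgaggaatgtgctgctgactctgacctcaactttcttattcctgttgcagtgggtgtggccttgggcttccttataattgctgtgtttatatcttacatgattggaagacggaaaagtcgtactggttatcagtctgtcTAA
By their ends these are the exons of the isoforms known as LAMP-2B, LAMP-2A and LAMP-2C, in that order. LAMP-2A is the receptor of chaperone-mediated autophagy, a separate route into the lysosome. The reading frames share their first 369 residues. The encoded ends of 45, 45 and 46 residues were identical at 20 of 45 aligned positions between Lamp2-202 and Lamp2-201, 23 of 46 between Lamp2-202 and Lamp2-203 and 22 of 46 between Lamp2-201 and Lamp2-203.

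Promoter windows from RefSeq (GRCm38.p6, 250 bases before to 50 bases after an annotated start, strand of the gene) were present for 32 of the 38 members. The letters CACGTG, the E-box core bound by TFEB and TFE3 among other factors, are the same on both strands and were searched in each window. The windows of Lamp1 (chr8:13158911-13159210, plus strand) and Atg3 (chr16:45158579-45158878, plus strand) are shown because they held more than 1 match. Capitals mark CACGTG.
Lamp1: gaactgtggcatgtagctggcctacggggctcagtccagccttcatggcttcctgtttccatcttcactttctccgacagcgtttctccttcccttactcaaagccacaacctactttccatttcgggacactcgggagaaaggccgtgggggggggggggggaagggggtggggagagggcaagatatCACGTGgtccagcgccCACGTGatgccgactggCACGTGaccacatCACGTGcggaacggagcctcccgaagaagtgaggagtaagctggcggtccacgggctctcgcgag
Atg3: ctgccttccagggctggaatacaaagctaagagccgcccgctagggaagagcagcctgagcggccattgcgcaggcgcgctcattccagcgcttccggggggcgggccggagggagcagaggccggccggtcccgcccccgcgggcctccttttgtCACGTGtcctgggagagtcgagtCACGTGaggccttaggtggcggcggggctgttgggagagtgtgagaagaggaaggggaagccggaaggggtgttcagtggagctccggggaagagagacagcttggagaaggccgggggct

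All 38 members reached 1 TPM or more in both hearts, where 54.5% of the nuclear protein-coding genes did. The median member stood at 21.4 TPM, against 12.0 TPM for the 11686 protein-coding genes detected in both hearts, and 27 of 38 members were above that median. Levels spanned from Atg2b at 1.92 TPM to Map1lc3a at 735 TPM, with 6 members above 100 TPM, 23 between 10 and 100 TPM and 9 below 10 TPM. Members held 0.259% and 0.270% of all TPM in replicates 1 and 2. The 5 genes of the LC3 and GABARAP family alone took up 58.3% and 59.0% of the members' summed level. The SD over the 2 hearts is given with each mean, and values per heart are given as replicate 1, then replicate 2.

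**Figure D1:**
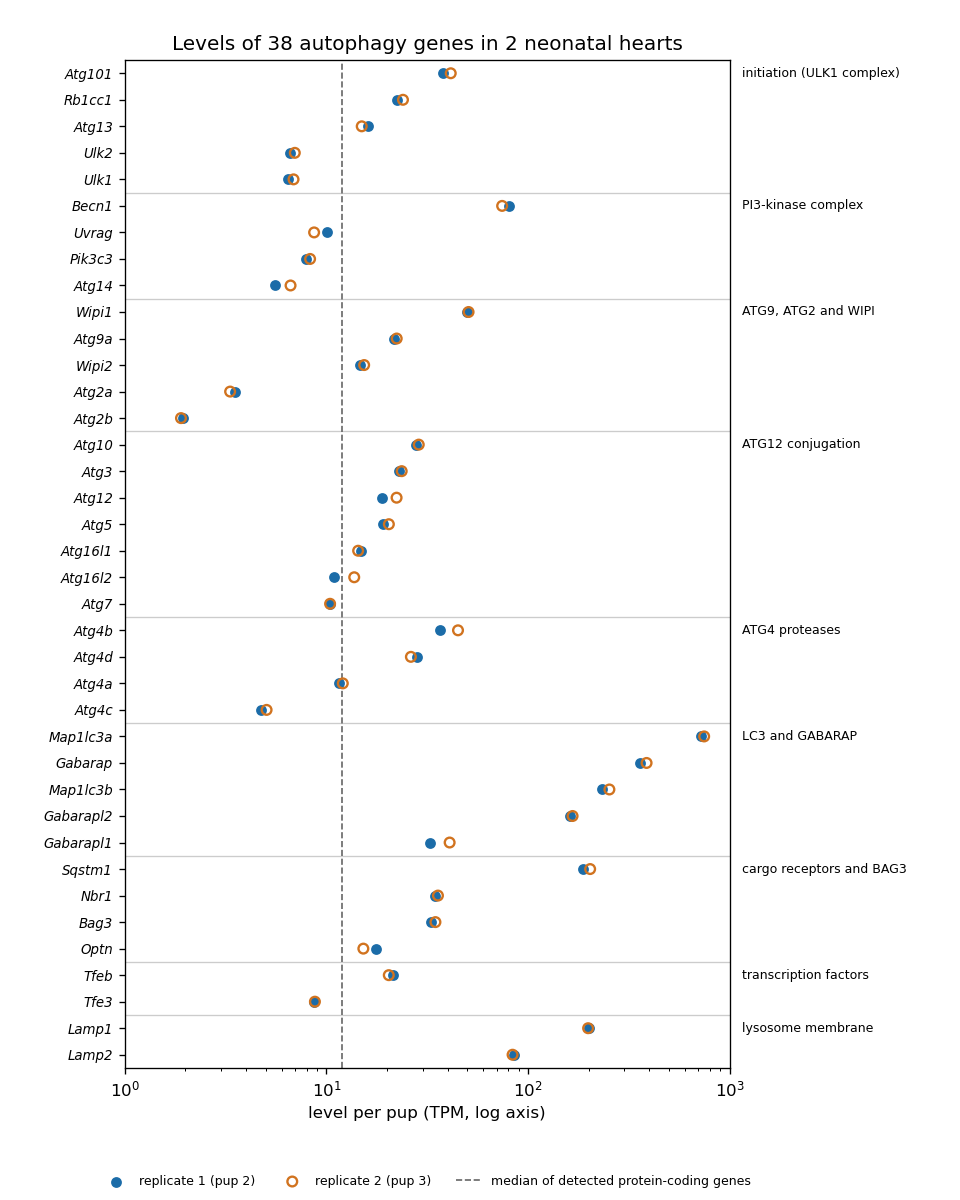
Level of each of the 38 autophagy genes in replicate 1 (filled) and replicate 2 (open), in TPM on a log axis, grouped by role; the dashed line is the median of protein-coding genes detected in both hearts (12.0 TPM). The LC3 and GABARAP genes except Gabarapl1, with Sqstm1 and the LAMP genes, lie at the right, and Atg2b, Atg2a and Atg4c at the left.

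In the order of levels, most neighbours could not be told apart. Of 37 neighbouring members, 12 were separated, meaning that both hearts of the higher gene lay above both of the lower and that the deposited credibility intervals did not overlap in either heart. At the top, Map1lc3a, Gabarap and Map1lc3b were each separated from the next gene, while Lamp1 (199 TPM) was not separated from Sqstm1 (195 TPM). Through the middle, from Atg3 at 23.3 TPM down to Atg7 at 10.4 TPM, no neighbour was separated from the next. In 2 members the TPM lay outside its own interval, above it for Map1lc3a and below it for Atg7. Atg7 counted as separated from Uvrag by these intervals, although its TPM in replicate 1 (10.44) fell inside the Uvrag interval.

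The kinase complex that starts autophagy was present at low to moderate levels. Ulk1, the serine/threonine kinase at its core, stood at 6.46 and 6.87 TPM, and its paralog Ulk2 at 6.57 and 6.97 TPM. The ratio of these kinases was -0.02 ± 0.00 on the log2(TPM + 1) scale (SD, n = 2), so they were not separated. Their partners were higher in both hearts. Atg13, the adaptor that binds the kinases, was at 16.2 and 15.0 TPM, and Rb1cc1, which encodes the scaffold FIP200, at 22.4 and 24.0 TPM. Atg101, which stabilises Atg13, was the highest of the complex at 37.9 and 41.4 TPM. It exceeded Atg13 by 2.55-fold per length, although the rounded numbers of reads assigned to Atg13 and Atg101 were nearly equal when not divided by length (log2 ratio 0.00).

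Among subunits of the lipid kinase complex, Becn1 stood far above the rest. Becn1 (chr11:101285952-101302286, minus strand), the regulatory subunit Beclin 1, was at 80.8 and 74.4 TPM with counts of 4679 and 4363. Pik3c3, the catalytic subunit VPS34, was at 7.95 and 8.30 TPM, and the log2 ratio of Becn1 over Pik3c3 was 3.11 ± 0.12. Over protein-coding transcripts alone that ratio was 1.19 ± 0.12, with 22.6% and 29.0% of the Becn1 level assigned to such transcripts. Here and below, transcripts were taken as coding by their annotation, whatever the length of their coding part. Atg14 and Uvrag encode alternative partners that direct the complex to autophagosome formation or to endosomes. Atg14 was at 5.54 and 6.64 TPM and Uvrag at 10.1 and 8.69 TPM. Uvrag was the higher in both hearts, by 1.54-fold on the means, with Atg14 higher and Uvrag lower in replicate 2.

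The lipid transport group was uneven. Atg9a, the membrane-spanning scramblase of the seed vesicles, was at 21.7 and 22.3 TPM. Atg2a and Atg2b, which encode bridge-like lipid transfer proteins, were the lowest members, at 3.54 and 3.33 TPM and at 1.94 and 1.90 TPM, and Atg2a was the higher by 0.60 ± 0.03 on the log2 scale. Wipi1 and Wipi2 encode readers of the lipid mark. Wipi1 was at 49.7 and 50.7 TPM and Wipi2, the paralog that recruits ATG16L1, at 14.6 and 15.4 TPM, so Wipi1 was 3.34-fold higher on the means (log2 ratio of Wipi2 over Wipi1 -1.68 ± 0.03).

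The genes of the ATG12 conjugation system lay close together, all between 10.4 and 28.2 TPM on the means. Atg12, a ubiquitin-like protein, stood at 18.8 and 22.3 TPM, and Atg5, to which it is coupled, at 19.1 and 20.4 TPM. Their log2 ratio was 0.05 ± 0.10 and changed sign between the hearts. Atg7, the E1-like enzyme that activates both ubiquitin-like systems, was the lowest of the group at 10.4 TPM in each heart. Atg10, the E2-like enzyme for ATG12, was at 27.7 and 28.7 TPM and Atg3, the E2-like enzyme for LC3, at 22.9 and 23.6 TPM. Atg10 was above Atg3 per length in both hearts (log2 ratio of Atg3 over Atg10 -0.27 ± 0.01), while by counts not divided by length Atg3 was the higher (log2 ratio 0.10). Atg16l1, which places the conjugate on the membrane, was at 14.9 and 14.4 TPM, and its paralog Atg16l2 at 10.9 and 13.7 TPM. The paralogs were not separated over all transcripts (0.24 ± 0.25), whereas over protein-coding transcripts Atg16l1 was the higher in both hearts (1.25 ± 0.38).

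The ATG4 cysteine proteases trim LC3 and GABARAP precursors and later free them from membranes. Atg4b was at 36.8 and 45.0 TPM, Atg4d at 28.1 and 26.3 TPM, Atg4a at 11.5 and 12.1 TPM and Atg4c at 4.72 and 5.05 TPM. Atg4b held 48.1 ± 3.9% of the family's summed level and Atg4c 5.77 ± 0.07%. The order of Atg4b and Atg4d turned with the transcripts counted: their log2 ratio was 0.57 ± 0.27 over all transcripts and -0.61 ± 0.19 over protein-coding transcripts. Atg4a shared 60.8% of its 31-base words with a pseudogene, Atg4a-ps, which was assigned 6.58 and 1.94 counts.

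The LC3 and GABARAP family, the ATG8 proteins of mammals, held the most abundant members. Map1lc3a was at 721 and 748 TPM, from 22559 and 23081 counts, which placed it at rank 157 among nuclear protein-coding genes. Gabarap (chr11:69991143-69994951, plus strand) was at 361 and 387 TPM, Map1lc3b at 233 and 253 TPM and Gabarapl2 at 161 and 166 TPM. Gabarapl1 was far below at 32.5 and 40.9 TPM. Gabarap exceeded Gabarapl1 by 10.2-fold on the means, although their proteins were the most alike of the family. Proteins were translated from the GENCODE coding sequence of transcript 201 of each gene. Gabarap and Gabarapl1 were 86.3% identical, Map1lc3a and Map1lc3b 79.2%, and Map1lc3a and Gabarap 30.4%. In these sequences Map1lc3b ended 5 residues after its last glycine, the residue at which ATG4 cleaves. The other 4 proteins ended 1 residue after theirs. Other coding transcripts of these genes were not translated for this comparison.

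Which gene of this family led depended on whether non-coding transcripts were counted. Over all transcripts Map1lc3a held 47.3 ± 0.65% of the family's level, Gabarap 24.1 ± 0.26%, Map1lc3b 15.7 ± 0.29%, Gabarapl2 10.6 ± 0.19% and Gabarapl1 2.36 ± 0.29%. Over protein-coding transcripts Gabarap held 35.4 ± 0.35%, Map1lc3b 27.0 ± 0.21%, Map1lc3a 26.2 ± 1.03%, Gabarapl2 7.27 ± 0.03% and Gabarapl1 4.07 ± 0.45%. The log2 ratio of Map1lc3a over Gabarap went from 0.97 ± 0.04 to -0.44 ± 0.07, and that of Map1lc3b over Map1lc3a from -1.59 ± 0.05 to 0.05 ± 0.07. Gabarapl1 was the lowest of the 5 in both hearts by either sum. The lead of Gabarap among coding transcripts also depended on which of them were counted. Gabarap-202, with a coding part of 318 bases against 351 in Gabarap-201, held 55.8% of the Gabarap level on the mean. Gabarap-201 was at 110 TPM on the mean, below Map1lc3a-201 (235 TPM) and Map1lc3b-201 (137 TPM).

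**Figure D2:**
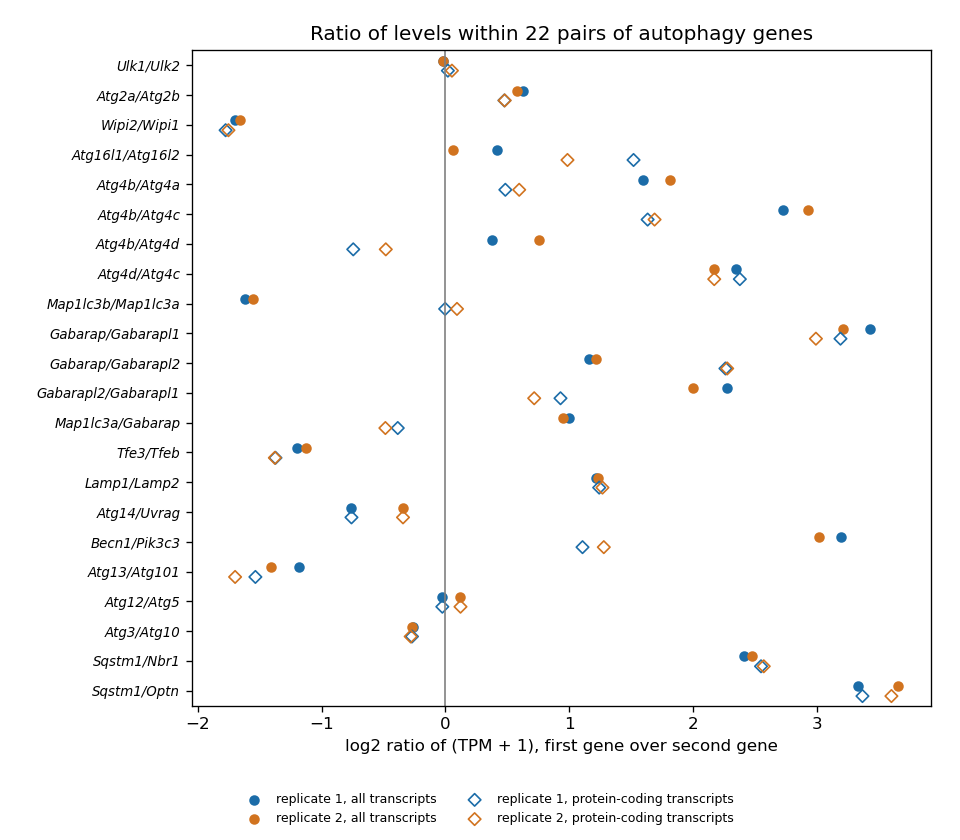
Log2 ratio of (TPM + 1) within 22 pairs of autophagy genes, first gene over second, for each heart; filled circles use all transcripts and open diamonds protein-coding transcripts only. Map1lc3a/Gabarap, Atg4b/Atg4d and, at small ratios, Ulk1/Ulk2 change side between the symbols in both hearts. Map1lc3b/Map1lc3a moves to -0.00246 in replicate 1 and 0.0931 in replicate 2, and Becn1/Pik3c3 falls from 3.11 to 1.19 on the means.

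Of the 3 cargo receptors among the members, Sqstm1 was the most abundant. Sqstm1, which encodes the ubiquitin-binding receptor p62, stood at 187 and 203 TPM. Nbr1, a related receptor that works with p62, was at 34.4 and 35.8 TPM, and Optn, which encodes the mitophagy receptor optineurin, at 17.6 and 15.3 TPM. Sqstm1 exceeded Nbr1 by 5.56-fold and Optn by 11.9-fold on the means. Bag3, the co-chaperone that routes damaged muscle proteins to autophagy with HSP70 and small heat shock proteins, was at 33.0 and 34.7 TPM. The 8 partners of BAG3 listed with it were all detected, led by Hspa8 at 976 and 1044 TPM, Cryab at 907 and 922 TPM and Hspb6 at 257 TPM in each heart. The stress-inducible HSP70 gene Hspa1a was the lowest of these partners at 1.89 and 2.12 TPM.

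The transcription factors of lysosome and autophagy genes were at moderate levels. Tfeb was at 21.3 and 20.4 TPM and Tfe3 at 8.72 and 8.77 TPM, so Tfeb was 2.39-fold higher on the means. Of the lysosomal membrane glycoproteins, Lamp1 (chr8:13159161-13175338, plus strand) was at 200.1 and 199 TPM and Lamp2 at 85.5 and 83.8 TPM. Lamp1 exceeded Lamp2 by 2.35-fold, with a log2 ratio of 1.23 ± 0.01.

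Over all 22 pairs, the first-named gene was higher in 13, the second-named gene in 6, and 3 were not called (Ulk1/Ulk2, Atg16l1/Atg16l2 and Atg12/Atg5). A pair was called when both hearts gave the same sign, the mean exceeded the difference between the hearts and the credibility intervals did not overlap in either heart. No p-value is given, since an exact two-sided sign-flip test over 2 hearts cannot go below 0.5.

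The 2 hearts differed little in these genes. No member was 2-fold apart, where 0.498% of the 13463 genes tested (mean count at least 50) were. Beyond 1.2-fold, 3 members were higher in replicate 2, against 7.87% of tested genes, and none was lower, against 7.36%. The 3 were Atg16l2 with counts of 567 and 708 (log2 ratio 0.35), Gabarapl1 with 2068 and 2570 (0.34) and Atg14 with 708 and 840 (0.28). Just inside the threshold was Atg12, with counts of 1715 and 2014 and a log2 ratio of 0.26. The lowest ratio was that of Uvrag, at -0.20 from counts of 1283 and 1096. The 35 members within 1.2-fold made up 92.1% of the list, against 84.8% of tested genes. Every member had at least 506 counts per heart, whereas tested genes went down to a mean count of 50. The shares were not compared at equal counts, so they do not show that these genes differ less than others. Ratios were positive for 28 members and negative for 10, that is 73.7% positive against 49.4% of tested genes. The median member ratio was 0.06 and that of all tested genes -0.00. With 1 library on each side these ratios have no test. Erythroid markers moved the other way, with a median log2 ratio of -0.70, and macrophage markers had a median of 0.26; their part in the members' ratios was not tested.

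**Figure D3:**
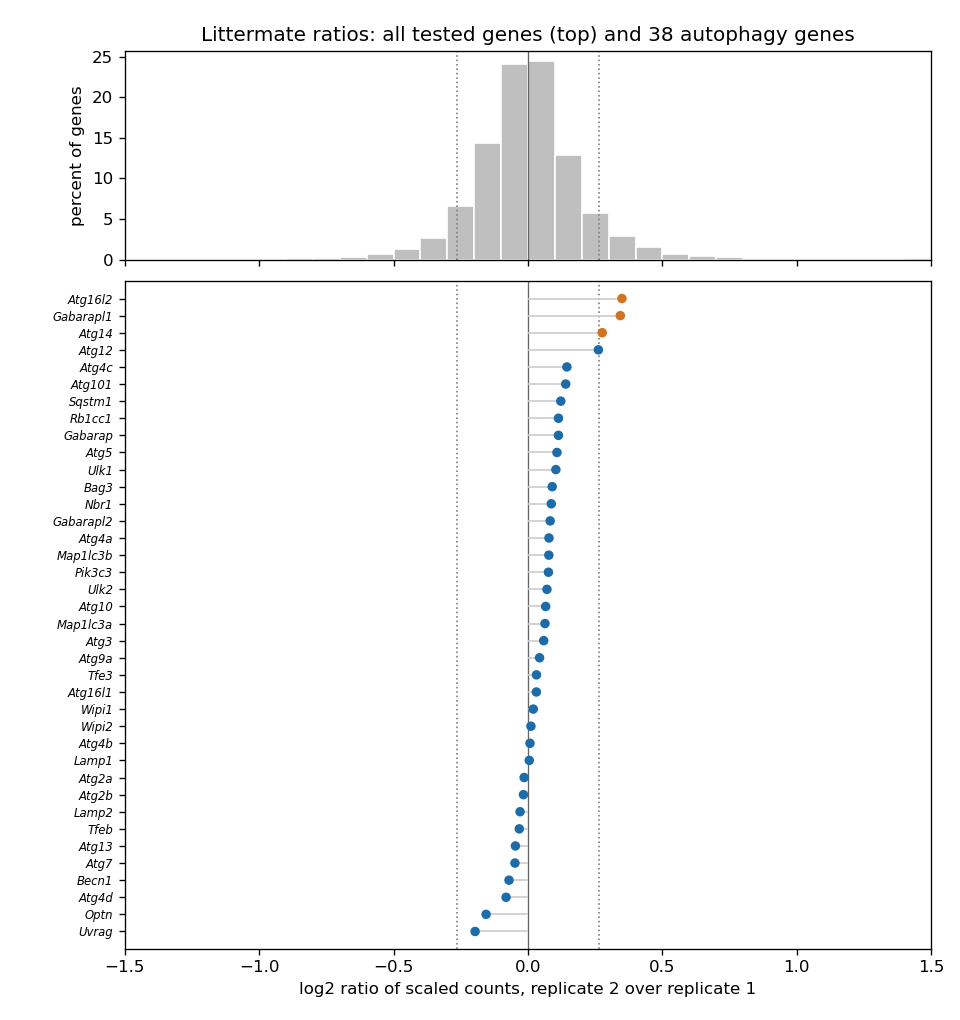
Log2 ratio of scaled counts, replicate 2 over replicate 1. The upper panel gives the percent of 13463 tested genes per bin, with genes beyond the axis in the end bins, and the lower panel gives each of the 38 autophagy genes; dotted lines mark 1.2-fold, and orange points are the 3 genes beyond it.

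Atg4b showed that a level and a count can move apart. Its TPM was 36.8 and 45.0, and its credibility intervals did not overlap between the hearts, yet its counts were 2366 and 2329 (log2 ratio 0.01). The short transcripts Atg4b-208 (503 bases) and Atg4b-203 (513 bases) held 11.8% and 19.9%, and 7.25% and 11.9%, of the gene's TPM, and the long Atg4b-201 (4173 bases) held 28.7% and 21.4%. Credibility intervals overlapped between the hearts for 28 of 38 members.

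Several members were led by transcripts not annotated as protein coding. Of the 38, 26 had more than 1 transcript, and 25 of these had the same leading transcript in both hearts. In 17 the leading transcript held over 50% of the gene's TPM in both hearts. In 4 members the leading transcript was not annotated as protein coding: Map1lc3a, Gabarapl2, Becn1 and Atg4b. By share of counts only Map1lc3a and Becn1 remained, since a short transcript weighs more in TPM than in reads.

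Map1lc3a-203, a processed transcript of 826 bases, held 67.6% and 68.1% of the Map1lc3a level, and the coding Map1lc3a-201 of 1112 bases held 32.4% and 31.7%. The hearts differed by less than 1 percentage point. Of the bases of Map1lc3a-203, 91.6% lie in exons of the coding transcript and 39.1% in its coding sequence, so the split rests mainly on reads that touch the capitals printed above or exon 1 of the coding transcript. Gabarapl2-203, annotated as a retained intron of 749 bases, held 60.9% and 59.1% of its gene, and the coding Gabarapl2-201 of 1677 bases 39.0% and 40.8%.

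Becn1-201, a transcript of 2123 bases annotated for nonsense-mediated decay, held 49.4% and 46.0% of the Becn1 level. The coding Becn1-217, with a coding part of 831 bases, held 11.9% and 18.2%. Becn1-205, which has the longest coding part at 1344 bases, held 0.755% and 1.10%. Becn1 also shares 43.9% of its exon bases with Cntd1 on the opposite strand, which was assigned 0.17 and 0.42 TPM. Atg4b-204, annotated for the same decay, held 33.6% and 31.6% of the Atg4b level. Of the coding transcripts of Atg4b, Atg4b-203 and Atg4b-209 have coding parts of 450 and 363 bases, against 1179 in Atg4b-201. In all, 13 members were overlapped by exons of another gene on the opposite strand. After Becn1, the largest such overlaps were Gabarapl1 with 1700101I11Rik (28.3% of exon bases, 35 and 34 counts for the partner), Atg4d with Kri1 (19.3%, 296 and 233 counts), Uvrag with Gm45187 (17.6%), Sqstm1 with Mrnip (17.3%, 213 and 220 counts) and Lamp1 with Grtp1 (9.31%, 313 and 370 counts). Atg9a shared 31.8% of its exon bases with Gm29253 on its own strand, which was assigned 10.9 and 35.9 counts. Reads from the opposite-strand overlaps cannot be told apart by strand here.

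Coding transcripts held over 90% of the level in both hearts for 26 members and under 50% in both for 5, namely Becn1, Map1lc3a, Atg16l2, Gabarapl2 and Atg4b. The leading transcript of Atg16l2 differed between the hearts: Atg16l2-202 was at 20.3% and 9.53% and Atg16l2-201 was at 13.1% and 31.1%, at gene counts of 567 and 708. Similar shifts occurred within coding transcripts of Tfe3, where Tfe3-201 was at 51.3% and 28.3%, and of Atg16l1, where Atg16l1-201 was at 13.0% and 29.9%. The credibility intervals of TPM overlapped between the hearts for Atg16l2-201, Atg16l2-202 and Tfe3-201, and did not for Atg16l1-201. Sqstm1-202, in a gene of higher level, held 80.2% and 79.7%.

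**Figure D4:**
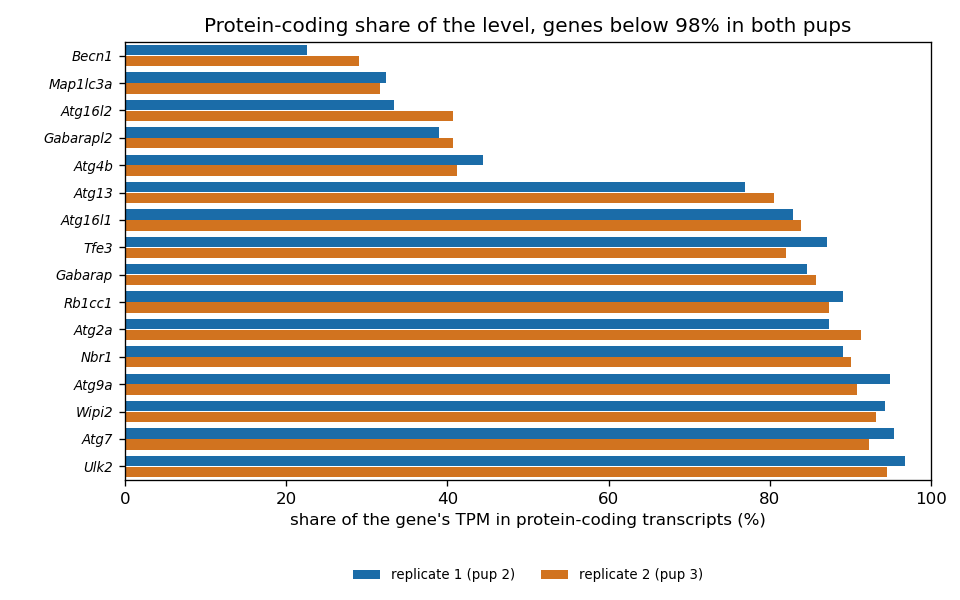
Share of the gene's TPM in protein-coding transcripts, in percent, for the 16 members below 98% in both hearts; bars are replicate 1 and replicate 2. Becn1, Map1lc3a, Atg16l2, Gabarapl2 and Atg4b lie below 50% in both.

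All 3 alternative ends of Lamp2 were used. Lamp2-202 led with 57.4% and 55.2% of the gene's TPM, followed by Lamp2-201 with 31.8% and 32.6% and Lamp2-203 with 9.11% and 9.84%. In TPM these were 49.1 and 46.3, then 27.2 and 27.4, then 7.79 and 8.25, and their credibility intervals did not overlap in either heart. The last exon of LAMP-2B was the most used, and that of LAMP-2A, the form of chaperone-mediated autophagy, made up 32.2 ± 0.59% (SD, n = 2).

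E-box cores were found in the promoter windows of 5 of 32 members, Lamp1, Atg3, Atg5, Atg14 and Atg7. These were 5 of the members' 38 windows (13.2%), and 7.15% of all 32851 windows held the core. Lamp1 held 4, which start 61, 45, 28 and 15 bases before the annotated start, and 8 windows in the table (0.0244%) held 4 or more. Atg3 held 2, at 94 and 71 bases before the start, and its match TCACGTGA was the only one of that longer form among the members (0.974% of all windows). Levels of these 5 genes ran from Atg14 at 6.09 TPM to Lamp1 at 199 TPM. The annotated starts of the Atg3, Atg7 and Atg14 windows lie inside the GENCODE gene rather than at its outer end. That of Atg3 lies downstream of the start of Atg3-201 (chr16:45158785), so the distances given for Atg3 are not from the GENCODE start. That of Atg14 is the start of Atg14-201, its only quantified transcript. That of Atg7 is the start of none of its quantified transcripts. Other motifs searched on both strands were GGGCGG (68.4% of member windows, 35.7% of all windows), TGACNNNGC (7.89% and 12.4%, in Atg13, Map1lc3b and Ulk2), GAANNTTC (5.26% and 7.86%, in Bag3 and Optn) and GTAAACA (no member window, 3.65% of all). CACGTG is part of TCACGTGA. These motifs were chosen after the levels were known, and a match is a description of letters, not a site of binding.

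**Figure D5:**
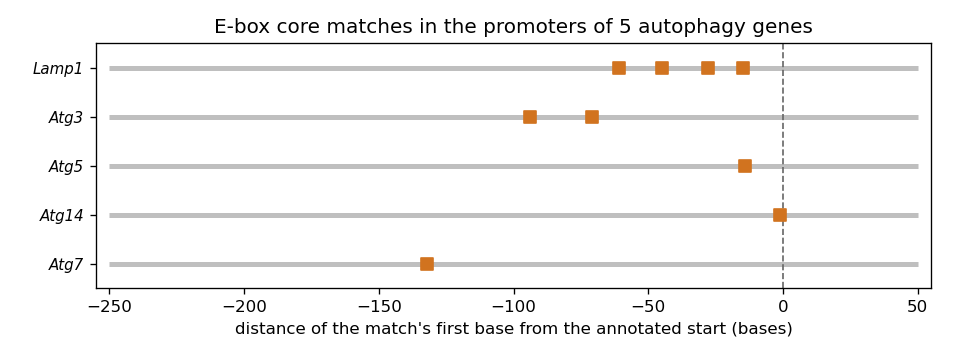
Distance of each E-box core match from the annotated start, in bases, in the promoter windows of 5 members; grey bars are the windows and the dashed line the start. The matches of Lamp1 all lie within 61 bases before the start.

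The genes around the machinery were counted from 7 lists of 109 genes, of which 107 were detected in both hearts. Of the 108 that passed the filter on counts, none was 2-fold apart (0.498% of all tested genes), 5 were higher beyond 1.2-fold in replicate 2 (7.87% of all tested genes) and 2 were lower (7.36%). Among further initiation and lipid kinase genes, 12 of 13 were detected, at a median of 19.7 TPM. They were led by Trp53inp2 (153 and 149 TPM), which shuttles between nucleus and autophagosome, Sh3glb1 (75.6 and 76.3 TPM) and Vmp1 (58.7 and 54.2 TPM), and Atg9b, the paralog of Atg9a, was at 0.26 and 0.36 TPM. Beyond 1.2-fold, 2 genes of this list were higher in replicate 2 and none was lower.

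Further cargo and organelle receptors were all detected, 13 of 13, at a median of 62.3 TPM. The mitophagy receptors Phb2 (328 and 320 TPM) and Bnip3l (208 and 223 TPM) and the endoplasmic reticulum receptor Retreg1 (112 and 109 TPM) led, and the kinase gene Tbk1 was lowest (10.2 and 10.1 TPM). Stbd1, a receptor for glycogen named after its values were seen, had the widest difference of the 109 genes, with 104 and 71.9 TPM and a log2 ratio of -0.52. It was the only receptor beyond 1.2-fold.

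For fusion of autophagosomes with lysosomes, 13 of 14 genes were detected at a median of 12.7 TPM. Rab7 (148 and 145 TPM), the GTPase of late endosomes, and the SNARE gene Vamp8 (132 TPM in each heart) were followed at a distance by Ykt6 (28.5 and 26.6 TPM), and the tether gene Epg5 was at 0.87 and 0.82 TPM. No fusion gene was beyond 1.2-fold.

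All 19 lysosomal enzyme genes were detected, at a median of 25.9 TPM, led by the protease genes Ctsd (371 TPM in each heart) and Ctsl (150.0 and 155 TPM) and the activator gene Psap (105 and 102 TPM), with Gla lowest (1.17 and 1.38 TPM). Beyond 1.2-fold, 2 enzyme genes were higher in replicate 2 and none was lower. Lipa, which encodes lysosomal acid lipase, was among them, with a log2 ratio of 0.33. All 19 genes of the lysosomal membrane and proton pump were detected, at a median of 44.1 TPM, led by Atp6v0c (434 and 418 TPM), Cd63 (349 and 362 TPM) and Laptm4a (273 and 269 TPM), and Ctns was lowest (7.86 and 8.13 TPM). None of these 19 was beyond 1.2-fold.

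Of the nutrient-sensing genes upstream of the kinase complex, 23 of 23 were detected at a median of 19.1 TPM. Rheb, the GTPase that activates mTORC1, was at 188 and 190 TPM, and the lysosomal scaffold genes Lamtor1 and Lamtor2 were at 112 and 119 TPM and at 99.98 and 103 TPM. Deptor, which encodes an mTOR inhibitor, was lowest at 2.28 and 1.97 TPM. Beyond 1.2-fold, Foxo3 was higher in replicate 2 (log2 ratio 0.34) and Mtor lower (-0.27).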

How the data were processed

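Total RNA above 200 bases from 2 hearts was sequenced from 10 ng with spike-ins, per the labels' protocols; protocols include a SMARTer Ultra Low manual. Strandedness, the aligner and its version were not given in the sources used here. Reads of overlapping genes on opposite strands therefore cannot be told apart, and exons of another gene on the opposite strand overlap 13 members. The authors deposited expected counts (estimated reads) and TPM per gene and per transcript, on mm10 with GENCODE M4, per the deposited read-me, with columns named as in RSEM output. Per the file headers they also deposited the bounds of a credibility interval on each TPM value (a signal on the TPM scale, interval width unknown) and a posterior SD of each count.

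Symbols, biotypes and coordinates came from GENCODE M21 of the same build, matched by identifier. Biotypes can differ between these releases. Levels were taken as deposited. Ratios between hearts used rounded expected counts scaled by TMM (edgeR 4.0.16, prior count 2) over genes averaging at least 50 counts. The script that computes them was checked on simulated counts. Pairs were compared as log2(TPM + 1). The posterior SD of the count was at most 0.447% of the count for the members.

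The 38 members, the lists and the pairs were chosen with earlier results of these data known. All members were named. Of each list, the 3 most abundant detected genes, the least abundant and any gene 2-fold apart were named. Further names are given as such or as some of those beyond 1.2-fold. No protein sequence was printed. The values of 1 list gene are not reported here. Alternatives were DESeq2 1.42.0 size factors, total count and spike-in scaling, other prior counts, filters, folds and pseudocounts, posterior means, coding transcripts only and leaving out a heart.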

Additional observations from a re-analysis of the deposited data

How the results depend on the processing

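All 38 members stayed detected under each level alternative except detection at 5 TPM, which kept 35. The median member level of 21.4 TPM became 22.2 TPM from posterior means, 28.7 TPM after rescaling over nuclear protein-coding genes and 20.2 TPM over protein-coding transcripts, and 21.5 to 22.3 TPM when either heart was left out. Over protein-coding transcripts the log2 ratios of Atg4b/Atg4d (-0.61) and Map1lc3a/Gabarap (-0.44) reversed. That of Map1lc3b/Map1lc3a changed sign on the mean (0.0453), but the hearts differed in sign (-0.00246 and 0.0931). With counts not divided by length the ratios of Atg4b/Atg4d (-0.10) and Atg3/Atg10 (0.10) reversed. That of Atg13/Atg101 changed sign on the mean (0.00265), with Atg13 higher in replicate 1 and Atg101 higher in replicate 2. Both alternatives were called without the interval condition. No member was 2-fold apart under any scaling, filter or prior count run. The 3 members higher beyond 1.2-fold became 0 at 1.5-fold and 2 to 4 under the other settings: Atg14 fell inside 1.2-fold with DESeq2 size factors and with TPM ratios, Atg4b passed with TPM ratios (log2 ratio 0.28), and Atg12 passed with total counts and with spike-in scaling, which rests on 262 and 246 counts. The 4 members led by a transcript that is not protein coding became 2 by share of counts. The share of all genes 2-fold apart was 1.27%, 0.27% and 4.41% with a mean count of 20 or more, of 200 or more and no filter. Leaving out a heart gives no ratio between hearts. No paired analysis was possible because the labels give 1 group. At the lowest member counts, near 506, counting error alone can be as large as the littermate ratio, and the number of hearts limits every statement.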
